A study of Homo sapiens with 15 samples.

Results

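The mitochondrial ribosomal proteins were represented by 77 protein-coding genes whose current symbols start with MRPL or MRPS, 49 of the large subunit (MRPL) and 28 of the small subunit (MRPS). They were chosen by symbol alone, through the RefSeq accession of each probe, out of 26825 measured features, 16584 of which carried a gene symbol. Their transcripts were measured on 15 single-color Agilent human expression arrays of A2058 cells, an established human melanoma line, after 8 hours with a compound or its solvent, in 3 independent experiments per group. All groups shared the line and the medium (EMEM with serum). The groups were NP at 3 μM against DMSO, and metformin at 5000 μM (MET) and phenformin at 50 μM (PHEN) against water (W), so that MET and PHEN share their control arrays. The sample labels read NP and the series title names neopetasin, whereas the paper gives this line, dose and time for petasin, and the name NP is kept here. The design text deposited with the arrays compares NP with DMSO and the biguanides with water because the solvents differ, whereas the supplementary methods of the paper name DMSO samples as the control of all 3 compounds. The comparisons with water are the main ones here, and those with DMSO are given after them.

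Mitochondrial ribosomal proteins are encoded in the nucleus, made in the cytosol and imported into mitochondria, where they assemble with mitochondrial ribosomal RNA. The finished ribosome translates the few proteins that mitochondrial DNA encodes, all of them subunits of respiratory complexes or ATP synthase, and several of these belong to complex I. The paper studied petasin as an inhibitor of complex I and reported no such assay of neopetasin. Metformin and phenformin are biguanides known for the same action. The question answered here is therefore whether transcripts of the ribosome that supplies core subunits of complex I differed after 8 hours of each compound, and whether large and small subunit genes differed from each other.

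All 77 genes were measured. They were covered by 91 probes, 14 genes by 2 probes each, and 89 of the 91 probes were well above background on all 15 arrays. No spot was saturated. The number of probes well above background ranged from 25803 to 37922 of 58201 on 13 arrays, and was 45042 on the array of W replicate 1 and 44449 on that of MET replicate 1. These arrays stand apart, and values with and without replicate 1 are given where they differ. DMSO and NP arrays lay on 2 slides (replicates 1 and 2 on the first, replicate 3 on the second) and water, MET and PHEN arrays on 2 other slides with the same layout. The melanocyte genes MITF (4.02 to 5.06), PMEL, DCT, SOX10 and S100B were above background on all 15 arrays, and the epithelial genes EPCAM and KRT5 on 0 arrays. The melanocyte gene TYR (-5.51 to -1.74) was above background on 13 arrays. MLANA (-2.60 to 0.42) and TYRP1 (-2.65 to -0.90), also melanocyte genes, were above background on all 15 but dim. So were the leukocyte gene PTPRC (-2.22 to -0.77) and the endothelial gene PECAM1 (-2.38 to -1.54). CD3E was above background on 11 arrays and ALB on 1. AXL (4.73 to 5.23) and NGFR (5.20 to 5.92), markers of dedifferentiated melanoma, were above background on all 15. Levels are given throughout on a log2 scale relative to the array, as the log2 spot intensity after its array's 75th percentile was taken as 0.

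Factors that act on nuclear genes for mitochondrial proteins include NRF1, the ETS factor GABP and YY1, and their recognition letters were searched in RefSeq promoter windows (GRCh38.p14, 250 bases before to 50 bases after the start, both strands). Windows were found for 69 of the 77 genes. The ETS letters CCGGAAG were in 29 of 69 windows (42%), against 14.2% of 15842 windows of protein-coding genes. A YY1 motif of 10 letters, shown in capitals after the start of MRPS18A, MRPS10 and MRPL38, was in 13 of 69 windows (18.8%), against 1.93% of those of protein-coding genes and 1.28% of all 27305 windows. The NRF1 motif with its central letter free was in 8 of 69 windows (11.6%), against 8.57% of those of protein-coding genes and 6.28% of all windows, and with that letter fixed in 1 window (MRPL17, 1.45%), against 1.75% of those of protein-coding genes and 1.36% of all windows, so that each fixed match is also a free one. ETS letters were in 40.5% of 42 large subunit windows and in 44.4% of 27 small subunit windows.

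The following stretches run from 100 bases before to 30 bases after the start of 5 genes that the results return to, with ETS and YY1 letters in capitals. MRPL41 (chr9:137551779-137551908, plus strand), the gene with the lowest p under NP, holds none of the motifs in its window. MRPS12 (chr19:38930844-38930973, plus strand) holds an ETS match, and MRPS18A (chr6:43687762-43687891, minus strand) and MRPS10 (chr6:42217832-42217961, minus strand), among the highest under phenformin, hold an ETS and a YY1 match each. MRPL38 (chr17:75904855-75904984, minus strand), the gene that differed most between the solvents in the main fit, holds a YY1 match, and an ETS match on the other strand further upstream.
MRPL41: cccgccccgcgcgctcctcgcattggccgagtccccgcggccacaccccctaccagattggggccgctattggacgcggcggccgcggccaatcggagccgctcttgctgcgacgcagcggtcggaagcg
MRPS12: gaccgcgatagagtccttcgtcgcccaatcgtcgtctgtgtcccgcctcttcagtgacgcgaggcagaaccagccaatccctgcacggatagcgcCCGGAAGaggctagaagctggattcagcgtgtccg
MRPS18A: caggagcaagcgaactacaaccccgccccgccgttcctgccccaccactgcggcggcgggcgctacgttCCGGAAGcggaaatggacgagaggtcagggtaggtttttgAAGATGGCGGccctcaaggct
MRPS10: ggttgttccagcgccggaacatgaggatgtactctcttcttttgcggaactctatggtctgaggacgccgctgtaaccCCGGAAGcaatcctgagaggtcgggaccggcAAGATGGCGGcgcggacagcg
MRPL38: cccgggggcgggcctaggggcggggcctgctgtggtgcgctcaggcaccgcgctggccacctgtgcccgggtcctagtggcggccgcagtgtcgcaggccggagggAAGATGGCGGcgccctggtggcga
In MRPS18A, MRPS10 and MRPL38 the YY1 match lies just after the start, with its first base at position 10, 10 and 7 counted from 1 at the start. Matches of letters describe these windows and do not show binding.

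After NP, no mitochondrial ribosomal protein gene passed the test, and nearly all were bounded to small differences. With limma over all features, 0 of 77 genes had an adjusted p of at most 0.05 with a change of at least 1.5-fold, against 10 features (0.0373%), and the lowest adjusted p among the 77 was 0.707. At an unadjusted p of at most 0.05 there was 1 lower gene, MRPL41 (1.3% against 1.88% of all features), and 0 higher genes (against 2.8%). The log2 fold changes ranged from -0.30 to 0.12, with a median of -0.03 against -0.01 over all features. The 95% interval of the fold change lay within 1.5-fold in both directions for 76 of 77 genes (98.7%), against 53.4% of all features and 71.3% of the 19568 features above background on all 15 arrays. The median standard error was 0.12 for these genes, 0.15 for the features above background on all arrays and 0.19 for all features. The exception was MRPS16, a small subunit protein with a bacterial homolog, whose interval ran from -0.53 to 0.65.

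MRPL41, a protein of the large subunit without a bacterial homolog, measured 6.45, 6.44 and 6.58 in DMSO and 6.18, 6.09 and 6.30 in NP. All 3 NP arrays lay below all 3 DMSO arrays. The log2 fold change was -0.30 (SE 0.09, 95% interval -0.49 to -0.10, adjusted p = 0.707 by limma), and the 3 pairs gave -0.27, -0.34 and -0.27. MRPL54, another such protein, measured 3.90, 3.74 and 4.03 in DMSO and 3.56, 3.51 and 3.86 in NP, which overlapped. MRPS12, the homolog of the bacterial protein next to the decoding center, measured 4.67, 4.47 and 4.79 in DMSO and 4.50, 4.35 and 4.42 in NP, with overlap between 4.47 and 4.50. Both were lower in all 3 pairs, with log2 fold changes of -0.25 (SE 0.12) for MRPL54 and -0.22 (SE 0.11) for MRPS12, each with an adjusted p of 1 by limma. In the other direction the 3 largest values that were higher in every pair were 0.12 for MRPS31, 0.12 for MRPL58, a peptidyl-tRNA hydrolase built into the large subunit, and 0.10 for MRPL1, the homolog of the bacterial L1 stalk protein.

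The small differences under NP leaned downward in the same experiments. Of the 77 genes, 56 had a negative fold change (72.7%, against 53.8% of all features and 57.1% of features above background on all arrays). In 34 genes NP was lower in all 3 pairs (44.2%, against 18.8% of all features and 21.8% of those above background), and in 6 genes higher in all 3 (7.79%, against 14.3% of both). NP and DMSO arrays did not overlap, with NP higher, in 1 gene (1.3%, against 3.01% of all features and 2.61% of those above background) and, with NP lower, in 8 genes (10.4%, against 3.4% of all features and 3.75% of those above background), namely MRPL34, MRPL41, MRPL49, MRPL50, MRPL51, MRPL55, MRPS2 and MRPS28, named after their values were seen. The genes share their arrays, so these counts are not 77 separate observations and carry no test. The size was small: by pair, the median over the 77 genes was -0.09, -0.01 and -0.05, against -0.03, 0.00 and -0.01 over all features.

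Large and small subunit genes hardly differed under NP. The median log2 fold change was -0.07 over the 49 large subunit genes and -0.02 over the 28 small subunit genes, a difference of -0.05. By pair the large subunit median minus the small subunit median was -0.03, 0.01 and -0.02, so the sign of the difference was not the same in all experiments. Genes with a bacterial homolog (46) had a median of -0.06 and genes specific to mitochondria (29) a median of -0.03. Moving MRPS18A and MRPS30, which sit in the large subunit despite their names, to that subunit left the medians at -0.07 and -0.02. Within the first slide (pairs 1 and 2) the medians were -0.06 and -0.04, and within the second (pair 3) -0.06 and -0.04.

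**Figure D1:**
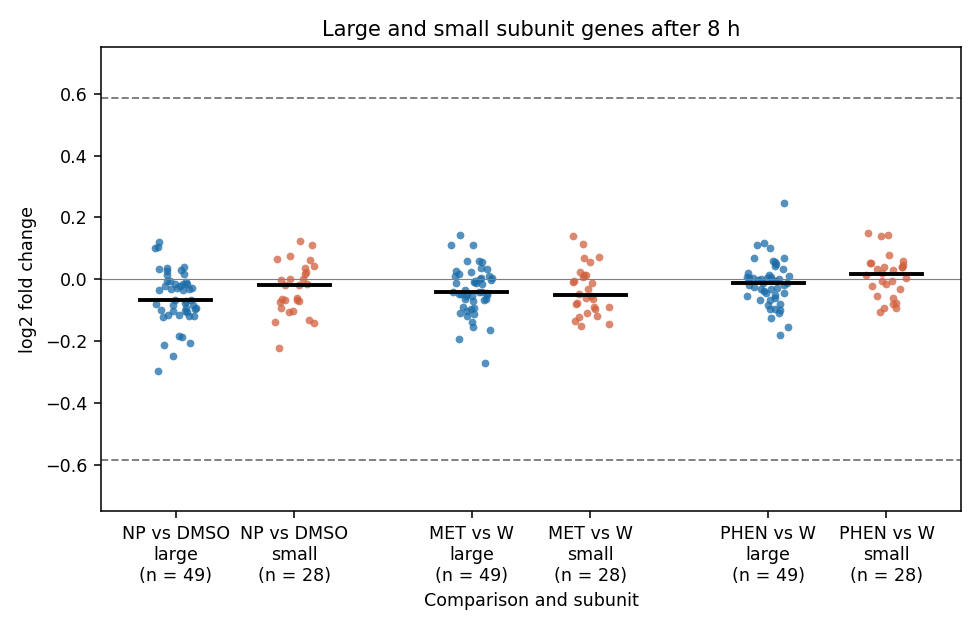
Log2 fold change (y axis) of each large subunit gene (blue, n = 49) and small subunit gene (orange, n = 28) in the 3 comparisons with own solvent, with the median as a black bar and dashed lines at 1.5-fold. All points lie between the dashed lines, with medians from -0.07 to 0.02.

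Members with known roles in the ribosome were near their DMSO level after NP. In the stalk that recruits translation factors, MRPL12 measured 3.99, 3.85 and 3.71 in DMSO and 3.82, 3.84 and 3.54 in NP, a log2 fold change of -0.12 (SE 0.10). The stalk base proteins gave -0.02 (SE 0.17) for MRPL10 and -0.12 (SE 0.14) for MRPL11. MRPL45, which holds the ribosome at the inner membrane, gave 0.03 (SE 0.11), with 4.93, 4.83 and 4.90 in DMSO and 4.84, 4.88 and 5.04 in NP. Among other large subunit genes, MRPL3 gave 0.04, MRPL4 -0.08, MRPL18 0.03 and MRPL44, which carries a domain related to ribonuclease III, -0.12. The MRPL18 value rests on 2 DMSO arrays, since the spot of DMSO replicate 3 was called an outlier and left out.

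Among small subunit genes, MRPS2 gave -0.09 (SE 0.08), MRPS7 -0.10, MRPS22 0.04, MRPS27, a protein with pentatricopeptide repeats, -0.13, and MRPS34 -0.14. The 3 relatives of bacterial S18 gave -0.07 for MRPS18A, 0.00 for MRPS18B and -0.02 for MRPS18C, and MRPS30 gave 0.04. None of these had an unadjusted p of at most 0.05 by limma. MRPS2 was tight enough to show all 3 NP arrays (5.61, 5.61 and 5.55) just below the 3 DMSO arrays (5.74, 5.63 and 5.70), and this difference did not pass the test.

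After metformin, no mitochondrial ribosomal protein gene passed the test either. Of 77 genes 0 were called by limma, as were 0 of all features (0%). At an unadjusted p of at most 0.05 there were 0 higher and 0 lower genes, against 1.38% and 1.07% of all features. The log2 fold changes ranged from -0.27 to 0.14 with a median of -0.04, against 0.00 over all features. The 95% interval lay within 1.5-fold for 74 of 77 genes (96.1%, against 53% of all features and 70.3% of those above background on all arrays), the exceptions being MRPL28, MRPL57 and MRPS16.

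MRPL57, a small protein of the large subunit specific to mitochondria, had the lowest value under metformin, with 3.09, 3.41 and 3.69 in water and 2.92, 3.09 and 3.37 in MET. The groups overlapped, while each MET array lay below the water array of the same experiment, by -0.17, -0.32 and -0.32 (log2 fold change -0.27, SE 0.20, 95% interval -0.72 to 0.18). MRPL1 (-0.19) and MRPL50 (-0.16) were likewise lower in all 3 pairs. MRPL10 measured 5.33, 5.49 and 5.26 in water and 5.40, 5.57 and 5.54 in MET, 0.14 higher with an SE of 0.17. MRPS18A gave 0.14 (SE 0.13) and MRPS26 0.12 (SE 0.10), each higher in all 3 pairs, and none of these had an adjusted p below 1.

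The 2 subunits were close after metformin too. Large subunit genes had a median of -0.04 and small subunit genes a median of -0.05, and the difference by pair was 0.01, -0.01 and -0.02. In 20 genes MET was lower in all 3 pairs (26%, against 20.2% of all features and 23.9% of those above background), and in 10 genes higher in all 3 (13%, against 22.2% and 23%). MET and water arrays did not overlap in 1 gene with MET lower (1.3%, against 2.27% and 2.48%) and in 2 with MET higher (2.6%, against 3.47% and 4.24%). The fold change was negative in 52 genes (67.5%, against 49% and 51.3%). The pair of replicate 1, which joins the arrays that stand apart, gave a median of 0.03 over the 77 genes, and the other pairs -0.08 and -0.05. Without replicate 1 the medians were -0.07 for the large and -0.04 for the small subunit. The stalk genes MRPL12 (0.03) and MRPL11 (0.03), the membrane anchor MRPL45 (-0.06), the hydrolase MRPL58 (-0.06) and the small subunit genes MRPS2 (0.07), MRPS7 (0.00), MRPS12 (0.02), MRPS16 (-0.09), MRPS22 (-0.08), MRPS27 (-0.07) and MRPS34 (0.07) all had an adjusted p of 1 by limma. MRPL3 gave -0.09, MRPL4 0.02, MRPL18 -0.11, MRPL44 -0.05, MRPS18B -0.03, MRPS18C -0.06 and MRPS30 -0.05.

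After phenformin, again no gene passed the test. Of 77 genes 0 were called by limma, against 7 features (0.0261%), and at an unadjusted p of at most 0.05 there were 0 higher and 0 lower genes, against 0.816% and 1.54% of all features. The log2 fold changes ranged from -0.18 to 0.25 with a median of 0.00, against -0.03 over all features. The interval lay within 1.5-fold for 72 of 77 genes (93.5%, against 55.2% of all features and 73.7% of those above background on all arrays), the exceptions being MRPL10, MRPL24, MRPL28, MRPL57 and MRPS16.

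MRPL10 had the highest value under phenformin. It measured 5.33, 5.49 and 5.26 in water and 5.63, 5.70 and 5.49 in PHEN, where only the lowest PHEN array reached the water range. The log2 fold change was 0.25 (SE 0.17, 95% interval -0.13 to 0.62), with 0.31, 0.21 and 0.23 by pair. MRPS18A (0.15) and MRPS10 (0.14), the homolog of bacterial S10, were also higher in all 3 pairs, and neither passed the test. MRPL41 measured 6.81, 6.97 and 6.93 in water, 6.77, 6.80 and 6.84 in MET and 6.75, 6.76 and 6.75 in PHEN, so that each PHEN array was below each water array. Its log2 fold change was -0.16 (SE 0.09, 95% interval -0.35 to 0.04) under phenformin and -0.10 (SE 0.09, 95% interval -0.29 to 0.09) under metformin. MRPL36 and MRPL27, homologs of bacterial large subunit proteins, gave -0.10 each and were lower in all 3 pairs under phenformin.

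The direction of the whole set under phenformin depended on the experiment. The median over the 77 genes was 0.17 in pair 1, -0.04 in pair 2 and -0.13 in pair 3, and only 8 genes were higher and 3 lower in all 3 pairs (10.4% and 3.9%, against 12.2% and 14.8% of all features and 15.4% and 10.8% of those above background). PHEN and water arrays did not overlap in 1 gene with PHEN higher (1.3%, against 3.82% and 4.85%) and in 2 with PHEN lower (2.6%, against 4.3% and 2.88%), and 41 fold changes were negative (53.2%, against 59.5% and 52%). Over all features the same medians were -0.02, -0.03 and -0.01. Pair 1 has the array of W replicate 1, on which the 77 genes had a median deviation of -0.03 from their mean over the 15 arrays, against 0.20 and 0.16 on the other water arrays. Without replicate 1 the medians under phenformin were -0.10 for the large and -0.06 for the small subunit, in place of -0.01 and 0.02, and without replicate 3 they were 0.04 and 0.09. The large subunit median was below the small subunit median by -0.05, -0.03 and -0.03 in the 3 pairs. The part of replicate 1 in these values was not tested beyond leaving it out.

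**Figure D2:**
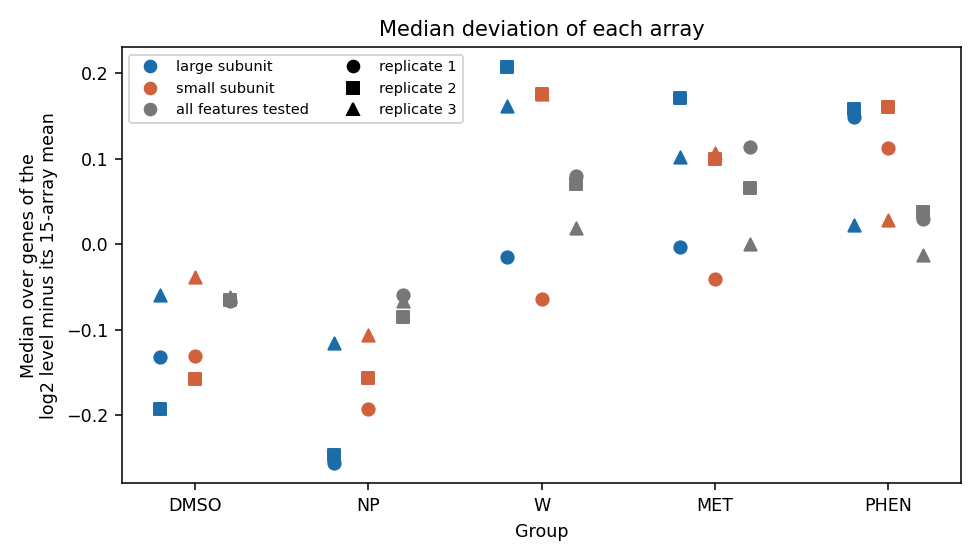
Median over genes of the log2 level minus the mean of the gene over the 15 arrays (y axis), for each array by group, with symbols for the replicate and colors for large subunit genes, small subunit genes and all features. Large and small subunit medians move together from array to array, the DMSO and NP arrays lie below 0, and in the subunit medians W replicate 1 and MET replicate 1 lie below the other arrays of their groups, whereas over all features they are the highest of their groups.

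The roles seen above were as close to the water level after phenformin. MRPL12 gave 0.01, MRPL11 0.01, MRPL45 0.05, MRPL58 0.01, MRPL44 -0.08, MRPL18 -0.11, MRPL3 0.00 and MRPL4 0.07. In the small subunit MRPS12 measured 4.91, 5.11 and 4.91 in water and 4.97, 4.97 and 4.97 in PHEN, with a fold change of 0.00. MRPS2 gave 0.00, MRPS7 0.08, MRPS16 -0.10, MRPS22 0.05, MRPS34 0.01, MRPS27 0.03, MRPS18B 0.04, MRPS18C 0.05 and MRPS30 -0.01.

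**Figure D3:**
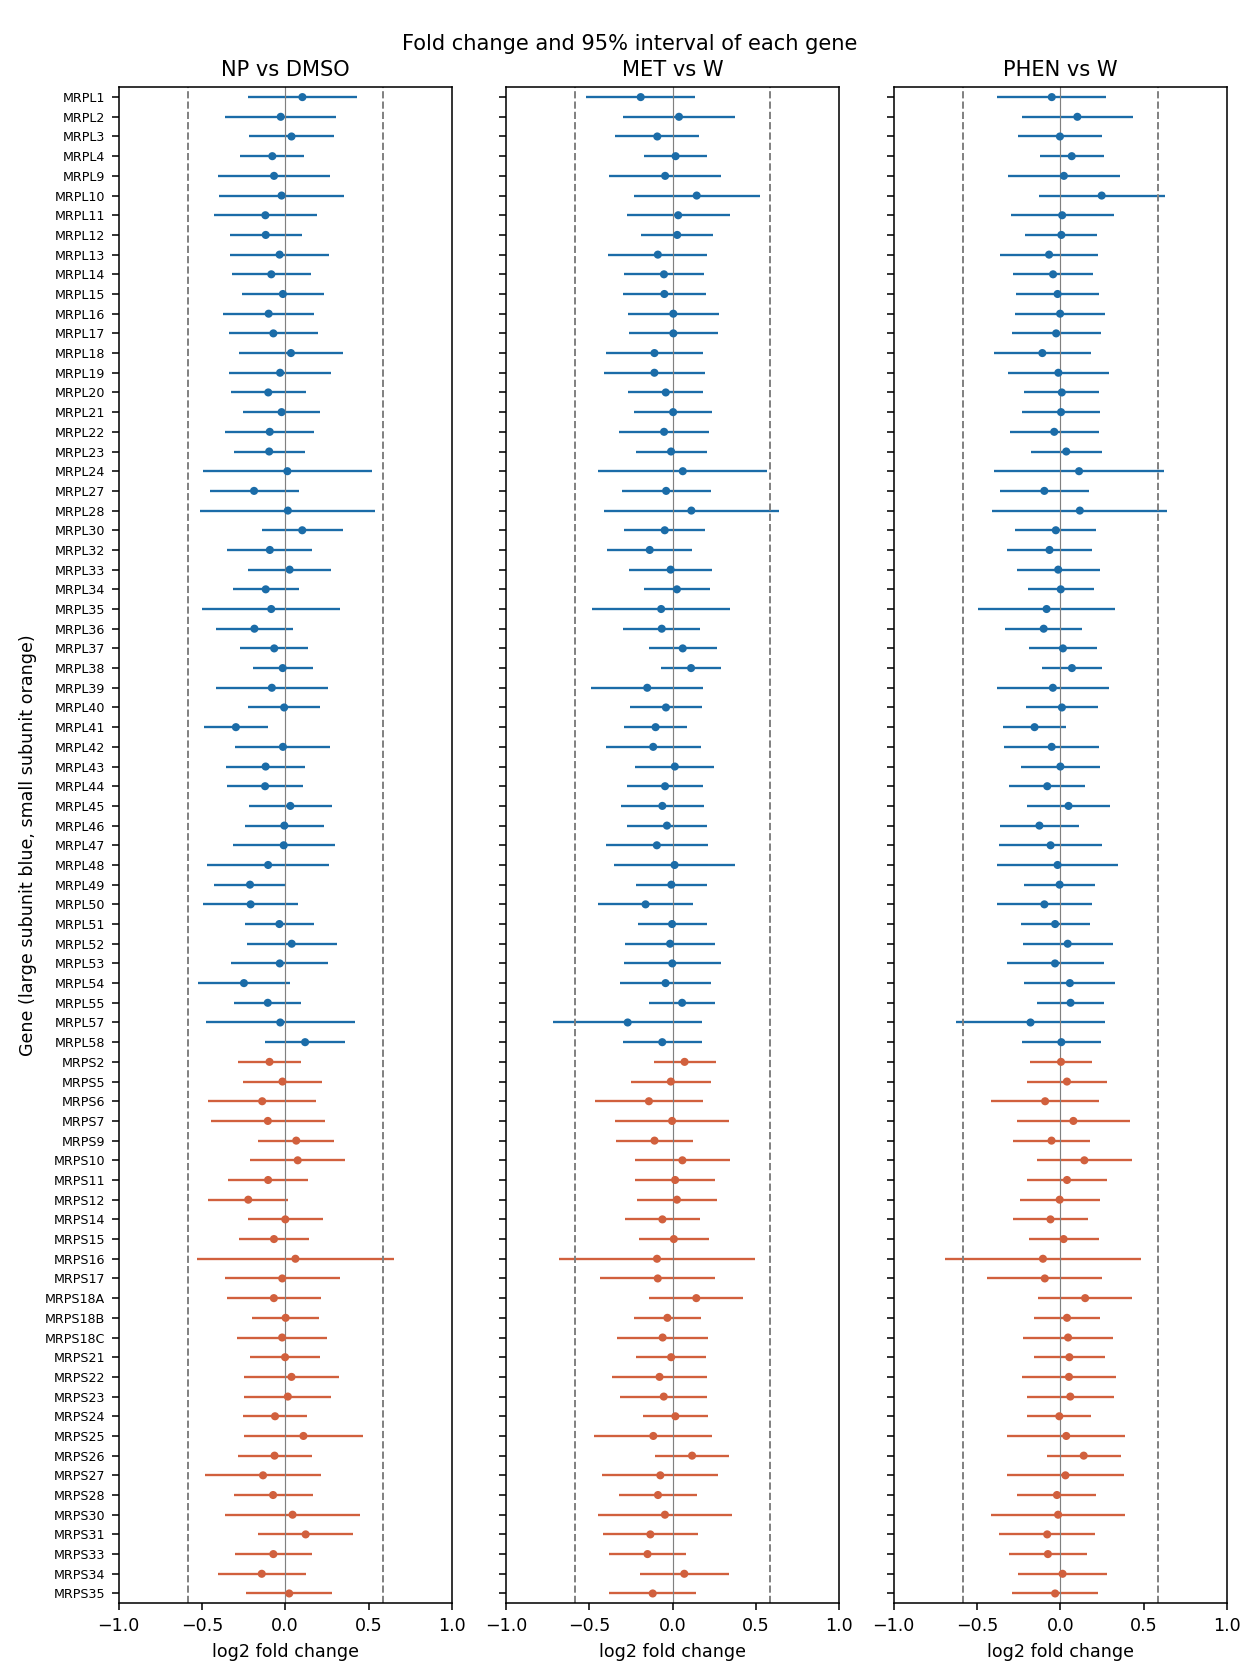
Log2 fold change (points) and 95% interval (lines) from limma for each of the 77 genes in NP against DMSO, MET against water and PHEN against water, large subunit in blue and small subunit in orange, with dashed lines at 1.5-fold. The intervals of 76, 74 and 72 genes stay between the dashed lines, and the interval of MRPL41 under NP is the only one that leaves out 0.

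The test of the difference between NP and a biguanide called no gene of the set. It called no feature at all, so it does not show that the responses were equal. For NP against DMSO minus MET against water, 0 of 77 genes had an adjusted p of at most 0.05 by limma (0% of all features), and 0 had an unadjusted p of at most 0.05 in either direction, against 1.38% and 1.41% of all features. The median difference was -0.02, from -0.25 to 0.30. For NP minus PHEN there were likewise 0 genes by adjusted (0%) and unadjusted p, against 1.91% higher and 0.514% lower features, with a median of -0.05. These intervals are wider, and they lay within 1.5-fold for 63 and 62 of the 77 genes (81.8% and 80.5%), against 30.2% and 33.9% of all features. The doses of the 3 compounds differ, so this compares the treatments as given.

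In other lists of genes for mitochondrial translation and its regulation, no gene passed the test either. The lists were the mitoribosome proteins with other names (DAP3, AURKAIP1, CHCHD1, PTCD3 and GADD45GIP1), 30 genes of ribosome assembly and ribosomal RNA modification, 15 translation factors, 15 genes of mitochondrial transcription and RNA processing, and 9 regulators of nuclear genes for mitochondria. In each list 0 genes passed the adjusted test by limma in any of the 3 comparisons. At an unadjusted p of at most 0.05 there were 2 higher genes after NP, 1 after metformin and 0 after phenformin, and 0 lower genes in any comparison, out of 74. Over all features 2.8%, 1.38% and 0.816% were higher at this threshold, so the counts are no more than the background share. MTRES1, a protein of mitochondrial RNA and ribosome rescue, gave 0.27 after NP (SE 0.11) and MTRFR, a release factor relative that rescues stalled ribosomes, gave 0.43 (SE 0.18). Both were higher in all 3 pairs, with 0.33, 0.20 and 0.28 for MTRES1 and 0.37, 0.34 and 0.58 for MTRFR, and both had an adjusted p of 1. After metformin TRMT2B, a methyltransferase of mitochondrial RNA, gave 0.31 (SE 0.12, with 0.48, 0.20 and 0.23 by pair, adjusted p of 1).

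Among the proteins with other names, DAP3, a GTP-binding protein of the small subunit, gave 0.17 after NP and AURKAIP1 gave -0.10, while GADD45GIP1 gave 0.10 after metformin and 0.08 after phenformin, AURKAIP1 0.03 after metformin and PTCD3 0.05 after phenformin. In assembly, RCC1L gave -0.24 after NP, GTPBP10 -0.27 (SE 0.32) after metformin, and MTG1 0.22 and RPUSD3 0.14 after phenformin. Of the translation factors, the initiation factor MTIF2 gave 0.11 after NP and -0.18 after metformin, the elongation factor TSFM -0.17 after metformin, and MTRFR 0.19 and GUF1 -0.05 after phenformin. In RNA processing, FASTKD5 gave -0.23 and TRMT10C -0.12 after NP, MTERF1 -0.21 and TFB2M -0.21 after metformin, and MTERF1 -0.19 and TBRG4 0.16 after phenformin. Median log2 fold changes of the 5 lists ranged from -0.07 to 0.00 after NP, from -0.10 to 0.03 after metformin and from -0.01 to 0.05 after phenformin. Of the regulators, NRF1 gave -0.12 and MYC 0.20 after NP, and GABPA, the DNA-binding subunit of GABP, gave -0.30 and MYC -0.24 after metformin, while PPARGC1B gave -0.11 and PPRC1 0.09 after phenformin, none with an unadjusted p of at most 0.05. In members with ETS letters in the promoter window (29) the median was -0.02 after NP, -0.02 after metformin and 0.01 after phenformin. In members without them (40) it was -0.07, -0.05 and -0.01.

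**Figure D4:**
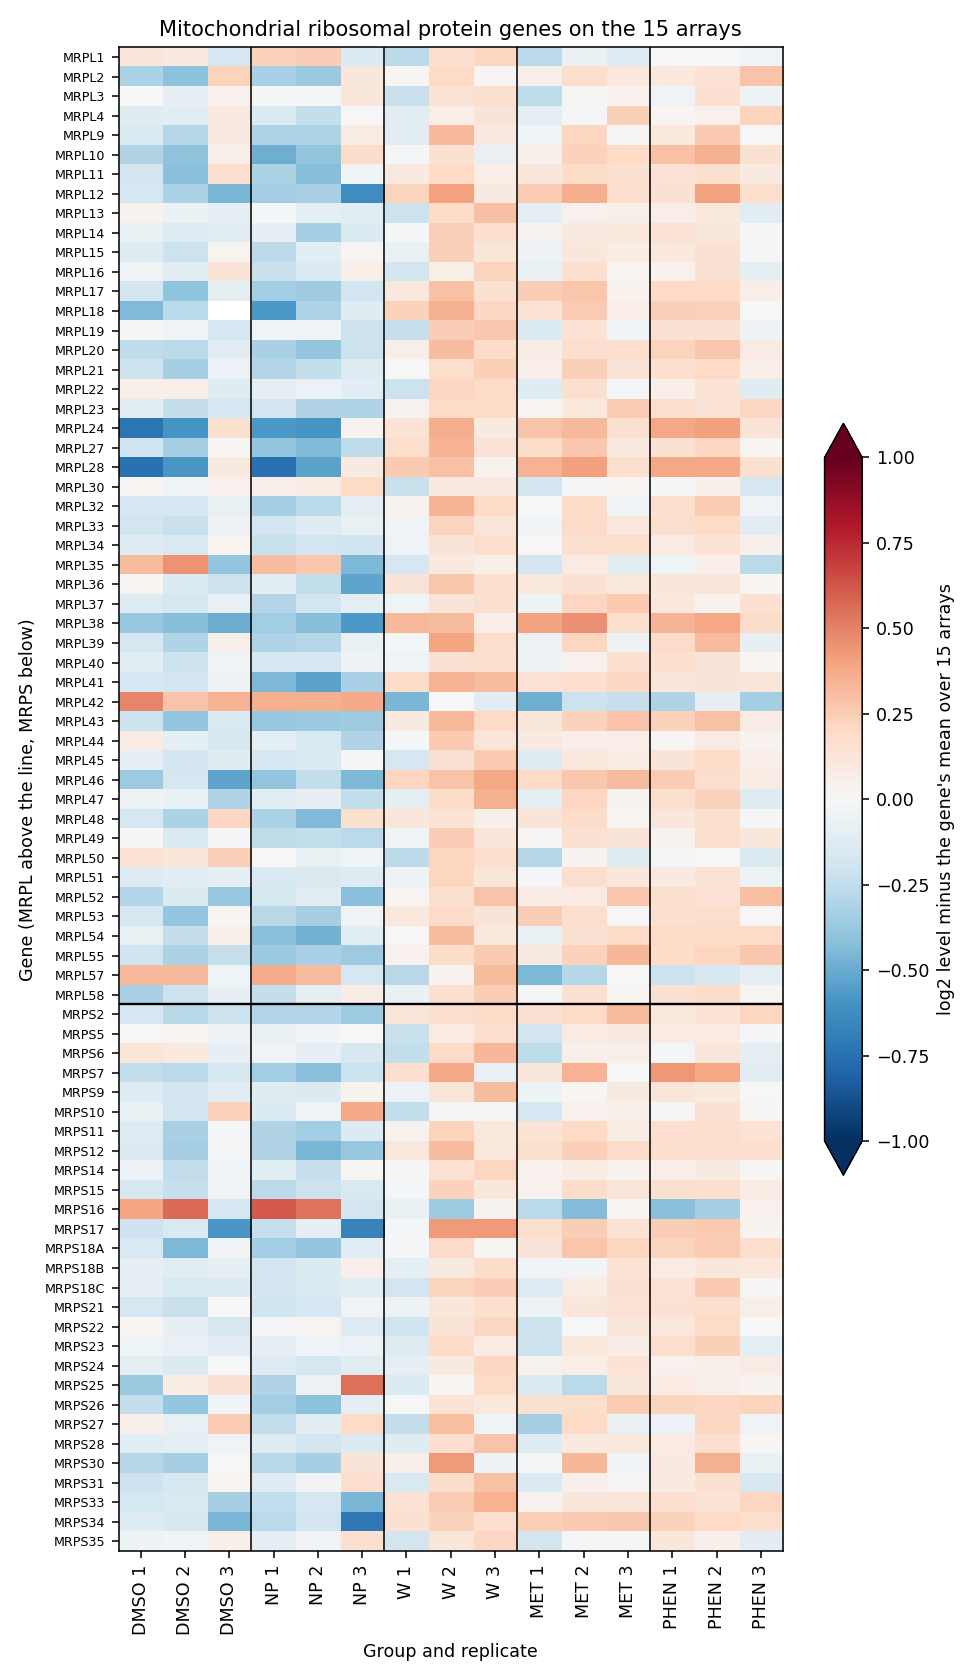
Log2 level of each of the 77 genes (rows, large subunit above the line) on each of the 15 arrays (columns, by group and replicate), as the difference from the mean of the gene over the arrays, with the color scale ending at 1 in both directions and a white cell for the MRPL18 value that was left out. DMSO and NP columns resemble each other, with blue for most genes, and most water, MET and PHEN columns are red for most genes. W replicate 1, MET replicate 1 and PHEN replicate 3 stand apart from the latter, with medians over the 77 genes near 0 (-0.03, -0.01 and 0.02).

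The largest differences in these genes were between the solvents, not between compound and solvent. In DMSO 69 of 77 genes were lower than in water (89.6%, against 61.4% of all features), with a median of -0.22 against -0.12 over all features and -0.04 over features above background on all arrays. Without replicate 1 the median was -0.32 (-0.10 over all features), and without replicate 2 it was -0.14 (-0.11 over all features). By limma 16 genes fell (20.8%, against 12% of all features) and 1 rose, MRPL42 (1.3% against 5.15%). At least 1.5-fold lower were 4 of those that fell (against 7.78% of all features), and 0 genes were called higher (against 2.81%), where 10.6% of all features were called in either direction. The solvent and the pair of slides cannot be told apart. With slide as a random block 2 genes remained below an adjusted p of 0.05, MRPL38 (-0.66, adjusted p = 0.0387) and MRPL46 (-0.68, adjusted p = 0.0442), against 1.37% of all features. Without replicate 1 or without replicate 2 there were 0 such genes, and 0 such features among all.

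MRPL38, a large subunit protein specific to mitochondria, differed most between DMSO and water in the main fit. Without replicate 3, MRPL28 (-0.94) and MRPL24 (-0.91) differed more than MRPL38 (-0.72). MRPL38 measured 2.49, 2.44 and 2.37 in DMSO and 2.52, 2.44 and 2.29 in NP, and 3.20, 3.18 and 2.94 in water, 3.27, 3.33 and 3.04 in MET and 3.21, 3.25 and 3.05 in PHEN. Every array of the first set of slides lay below every array of the second. MRPL46 measured 3.31, 3.49 and 3.14 in DMSO and 3.89, 3.96 and 4.06 in water, with a log2 fold change of -0.65 (SE 0.11, adjusted p = 0.00615). The other members called lower in DMSO were MRPL18 (-0.63) and MRPS17 (-0.59). For MRPL18 the spot of DMSO replicate 3 was left out. With slide as a random block MRPL18 gave -0.50 (adjusted p = 0.12 by limma) and MRPS17 -0.65 (adjusted p = 0.102). MRPL42 ran the other way, with 3.69, 3.49 and 3.55 in DMSO and 2.74, 3.19 and 3.09 in water (0.57, SE 0.13, adjusted p = 0.0174).

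Some members differed between the 2 slides of the DMSO and NP arrays as well. MRPL28 measured 4.21, 4.37 and 5.04 in DMSO and 4.20, 4.42 and 5.04 in NP, with replicate 3 on the second slide, and 5.21, 5.24 and 4.98 in water. MRPL24 measured 5.02, 5.15 and 5.90 in DMSO and 5.17, 5.16 and 5.78 in NP. MRPS16 had the opposite pattern, with 8.24, 8.41 and 7.67 in DMSO and 8.46, 8.39 and 7.66 in NP. NP and DMSO arrays of the same experiment were close in all 3 genes, and the slide and the replicate number cannot be told apart here.

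The choice of control therefore decided what the biguanides showed. Against DMSO, 20 genes were higher and 1 lower in MET at an adjusted p of at most 0.05 (26% and 1.3%, against 17.2% and 9.19% of all features), with medians of 0.20 for the large and 0.16 for the small subunit in place of -0.04 and -0.05, and 0.14 over all features. With quantile normalization 11 genes were higher and 2 lower (against 13.3% and 12.2% of all features), with medians of 0.12 and 0.04, and 0.01 over all features. The genes called were then MRPL38 (0.78), MRPL46 (0.59) and MRPL42 (-0.72), and not MRPL28, and the share of all features called was not computed for this setting. Without quantile normalization MRPL28 (0.72), MRPL38 (0.78) and MRPL46 (0.62) were called higher and MRPL42 (-0.68) lower. In that fit 17% of all features were called and 38.5% were negative. In PHEN 15 genes were higher and 1 lower (19.5% and 1.3%, against 11.4% and 6.48%), with medians of 0.25 and 0.21 in place of -0.01 and 0.02, and 0.09 over all features, and MRPL38 (0.74) and MRPL42 (-0.62) were called, where 10.3% of all features were called and 42.2% were negative. With quantile normalization 9 genes were higher and 1 lower in PHEN (against 10.5% and 7.14% of all features). The medians were then 0.13 for both subunits, and 0.04 over all features. The MET and PHEN arrays lie on other slides than the DMSO arrays. With slide as a random block 6 genes were higher in MET (against 4.56% of all features) and 2 in PHEN (2.6% of the 77, against 2.67%), with 0 lower in either (against 2.35% and 0.902%). Without replicate 1 or without replicate 2 there were 0 genes and 0 features at this threshold in both contrasts. Both contrasts share the DMSO arrays.

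**Figure D5:**
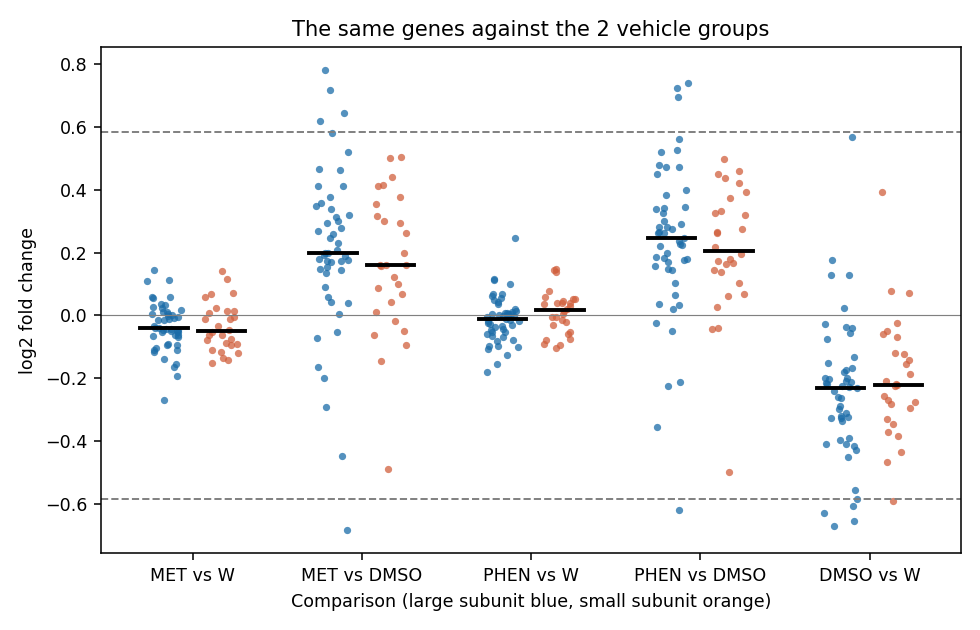
Log2 fold change (y axis) of the large subunit genes (blue) and small subunit genes (orange) for metformin and phenformin against water and against DMSO, and for DMSO against water, with medians as black bars and dashed lines at 1.5-fold. The medians lie between -0.05 and 0.02 against water, between 0.16 and 0.25 against DMSO, and near -0.22 for DMSO against water.

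Of the 14 genes with 2 probes, the second probe was above background on all 15 arrays in 12. The second probes of MRPS18C and MRPL43 were dim, above background on 10 and 12 arrays. In the 12 others, second probes gave mean log2 fold changes after NP from -0.15 (MRPL32) to 0.11 (MRPL19), and the brighter probes of the same genes from -0.12 (MRPL12) to 0.06 (MRPS16). After NP the dim probe of MRPS18C differed most from its brighter probe, and it was chosen for mention after its values were seen. It measured -0.14, -1.47 and -3.95 in NP and -3.87, -4.45 and -3.72 in DMSO. NP replicates 1 and 2 were high on this probe while NP replicate 3 was within the DMSO range, and on the other 9 arrays it lay between -6.10 and -4.12. The bright probe of MRPS18C measured 6.03, 5.96 and 5.97 in DMSO, with pair differences of -0.10, 0.01 and 0.03 in NP. After phenformin both dim probes had lower means than in water. That of MRPL43 gave -0.67, against -0.000347 for the brighter probe. It measured -3.33, -3.47 and -3.81 in PHEN and -2.61, -2.94 and -3.05 in water. The dim probe of MRPS18C gave -0.61, against 0.05 for the brighter probe.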

How the data were processed

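The authors hybridized RNA of A2058 cells, in a single color, to Agilent arrays. The deposited files hold spot intensities extracted by Feature Extraction (10.7.3.1 per the file headers, 9.1 per the labels), background-subtracted and not normalized between arrays. A further deposited table, used as an alternative, holds log2 values that the authors scaled by the 75th percentile and floored at 4. With R 4.3.3 and limma 3.58.1 (statmod 1.5.0), control and outlier spots were removed, probes averaged, and the log2 75th percentile of each array subtracted. A probe was kept if some group had it well above background in all 3 replicates, and then the brightest per gene, with values on at least 8 arrays. Symbols came from RefSeq accessions (31104 of 33080 probes with one were matched). The design of the arrays used an earlier genome build, so only promoter windows carry coordinates.

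The 5 groups and the replicate number were fitted over all 15 arrays, and two-sided p-values were adjusted over all features by Benjamini-Hochberg. Genes were called at an adjusted p of at most 0.05 and a log2 fold change of 0.585 (1.5-fold) or more in size. The replicate number marks an independent experiment and was kept as a block, with an effect common to all 5 groups. The paired test of the study instead matches each treated array with its own control. Replicate differences not shared between the DMSO and NP slides and the other slides therefore stayed in the spread of this fit. Deviations of same-numbered arrays from their group means correlated at 0.24 to 0.86 in all 9 pairs. The named members were those called, the 3 highest and 3 lowest that moved the same way in all pairs, and 20 members chosen by role, and from each other list the 2 largest of this kind. Members and lists were chosen with earlier results of these data known. Alternatives were no replicate block, slide as a term or random block, normexp (offset 50, on the median spot signal), quantile normalization, the authors' table, other probe filters, the mean of probes, only the groups compared, the methods' paired test, leaving out each replicate, DMSO as control, and structural subunits. DMSO against water and within-slide medians were added after the data were seen. The fit was tested on simulated data with a replicate effect common to all groups and no slide effect, so that test does not cover differences between slides. The 3 arrays per group limit the precision. Python 3.11.15, pandas 2.3.3, numpy 2.4.6 and matplotlib 3.10.9 were used for motifs and figures.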

Additional observations from a re-analysis of the deposited data

How the results depend on the processing

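With their own solvent as control, 0 of 77 genes were called in the 3 comparisons under every alternative run, and 0 in both tests of NP against a biguanide. The lowest adjusted p of a gene over these alternatives was 0.18 (NP, slide as a term). Without the replicate block the counts of called genes were 0, 0 and 0, and no call changed. Counts at an unadjusted p of at most 0.05 did move, and the cause was not tested. The shares of all features at this threshold were not computed for these alternatives. The following counts therefore have no background beside them and are not read as results about the genes. Under NP 6 genes were lower with the replicate block and a slide term, 4 with slide as a random block, 2 with quantile normalization, 3 in the authors' table, 2 with probes above background on all arrays, 2 with the mean of probes (and 1 higher, MRPS18C), 2 with only the groups compared and 8 by the methods' paired test (and 2 higher), in place of 1, and 0 to 1 when a replicate was left out. Under metformin 2 were lower with a slide term, 1 with only the groups compared, and 2 lower and 5 higher by the methods' paired test. Under phenformin 1 was higher and 1 lower with a slide term, 1 higher with slide as a random block, 1 lower with the mean of probes and 2 higher by the methods' paired test.

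The difference between the large and small subunit median stayed below 0.05 in size. Under NP it was -0.02 (-0.0196) with normexp, -0.0178 and -0.0156 within the slides, and -0.0312 to -0.0178 when a replicate was left out. The small subunit median was -0.0437 within the slide of pairs 1 and 2, and -0.0454 to -0.00965 when a replicate was left out. Under metformin the difference changed sign, with -0.00245 for the mean of probes, -0.0152 within the slide of pair 3, and -0.0243 to 0.0158 when a replicate was left out. Under phenformin it was -0.0441 within the slide of pairs 1 and 2, and -0.0441 to -0.0429 when a replicate was left out. With DMSO as control, metformin gave 4 called genes, 30 higher and 3 lower at an unadjusted p (of all 26825 features, 7026 and 3706), and medians of 0.199 and 0.160 (difference 0.0395), and phenformin 2 called, 35 higher and 1 lower (5592 and 3349), and medians of 0.246 and 0.205 (difference 0.0410). For DMSO against water, 2 genes fell and 2 were called with slide as a random block (1.37% of all features fell), 26 and 9 with normexp (8.22%), and 10 fell with quantile normalization (9.19%), which moved the median of all features from -0.12 to -0.01 and that of the 77 genes from -0.22 to -0.15. When a replicate was left out, 0 to 23 fell and 0 to 6 were called, with 0 (0% of all features) without replicate 1 or 2 and the most (18.2% of all features) without replicate 3. The shares given for these settings are of features that fell, and the shares of all features called were not computed for them.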
